A study of Homo sapiens with 6 samples.

Results

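The transforming growth factor beta (TGF-beta) superfamily is a set of secreted dimeric ligands that signal through paired serine/threonine kinase receptors. TGF-beta and activin receptors phosphorylate SMAD2 and SMAD3, bone morphogenetic protein (BMP) receptors phosphorylate SMAD1, SMAD5 and SMAD9, and both kinds of receptor-regulated SMAD join SMAD4 to act on target genes. Many targets are brakes on the pathway itself, and the ID genes, which encode inhibitors of DNA binding that pair with basic helix-loop-helix factors, are among the best known BMP targets. In epithelial cells the pathway is known for growth arrest and for the change towards a migratory, mesenchymal state, and thyroid cells both make and respond to TGF-beta and activin.

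The genes described here are 50 members of this pathway, chosen by name as ligands, receptors, SMADs, extracellular and intracellular regulators and direct targets, out of 58735 genes in the expression table. By role they were 12 ligands, 10 receptors, 8 SMADs, 10 extracellular regulators, 5 nuclear or membrane inhibitors and 5 targets. They were measured by RNA-seq in TPC-1, an established human papillary thyroid carcinoma cell line, as the unmodified wild strain (TPC-1, 3 libraries) and after infection with the LV18 lentivirus carrying full-length *RRM2*, which encodes the small subunit of ribonucleotide reductase, under a CMV promoter with puromycin selection (RRM2-OE-TPC-1, 3 libraries). Both were grown in RPMI medium with fetal bovine serum and neither received added ligand. The overexpressing cells were a drug-selected infected population, and no library of empty-vector cells was analysed here, so infection and selection cannot be told apart from *RRM2* itself. The series describes the libraries as biological triplicates. The genotype label of RRM2-OE-TPC-1 replicates 2 and 3 reads RRM3 and RRM4, while their titles read RRM2.

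Each library held 14317091 to 17084067 reads assigned to genes. *RRM2* stood at 9.17, 9.05 and 8.52 FPKM (fragments per kilobase of gene length, scaled to sequencing depth) in TPC-1 and at 50.4, 47.5 and 47.2 FPKM in RRM2-OE-TPC-1, so all 3 libraries labelled as overexpressing, including those with the odd genotype label, were above the 3 wild-strain libraries (log2 fold change 2.43, SE 0.0442, adjusted p = 1.11e-08). Of 7 thyroid lineage markers, *PAX8*, *FOXE1* and *HHEX* were measurable, *NKX2-1* had no read in any library, and the differentiation genes *TG* and *TSHR* were near 0. The summed thyroid markers ranged from 73.9 to 77.8 FPKM in TPC-1 and from 64.2 to 67.5 FPKM in RRM2-OE-TPC-1. The 6 epithelial markers, of which 3 were measurable, summed to 42.9 to 47.1 FPKM and to 88.4 to 90.8 FPKM in the same order, mostly through *KRT18*, while *CDH1* and *EPCAM* were near 0. The 7 fibroblast markers summed to 2.98 to 3.39 and 2.95 to 3.05 FPKM with *DCN* and *COL3A1* at 0, the 5 immune markers to 0.349 to 0.410 and 0.135 to 0.215 FPKM with *CD3E* at 0, and the 4 endothelial markers to 0.873 to 1.05 and 0.0667 to 0.115 FPKM, mostly *PECAM1*, with *KDR* at 0.

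Differences are log2 fold changes on the log2(FPKM + 0.1) scale, RRM2-OE-TPC-1 minus TPC-1, so that a positive value means more RNA in RRM2-OE-TPC-1, from limma with Benjamini-Hochberg adjustment over the 13621 genes tested. A gene is called higher or lower when its adjusted p is at most 0.05 and its log2 fold change is at least 1 in size. The 2 cell populations differed widely: 1560 genes (11.5%) were called, 610 (4.48%) higher and 950 (6.97%) lower. At the adjusted p alone 9207 genes (67.6%) passed, 4758 (34.9%) higher and 4449 (32.7%) lower, and in 9841 genes (72.2%) the values of the 2 groups did not overlap. The median log2 fold change of all tested genes was 0.01. A change in RNA per cell and a change in the share of cells making it cannot be told apart in these bulk libraries.

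Of the 50 pathway genes, 46 had enough reads to be tested and 6 were called, 4 higher (*ID3*, *FST*, *INHBA* and *BAMBI*) and 2 lower (*ID2* and *INHBE*), beside 11.5% of all genes. A further 28 passed the adjusted p with a smaller change, 9 higher and 19 lower, which made 34 past the adjusted p, 13 higher and 21 lower, beside 67.6% of all genes. The groups did not overlap in 36 of the 46, beside 72.2% of all genes. The shares of pathway genes called and past the adjusted p therefore lay near those of the whole table. The median log2 fold change of the tested members was -0.20, with 27 negative and 19 positive. Of the tested members 41 were above the expression minimum in all 6 libraries, while *FST* and *ID3* passed it only through RRM2-OE-TPC-1 and *INHBE* and *CHRD* only through TPC-1, so these 4 could enter the test only on the strength of the group in which they were high.

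**Figure D1:**
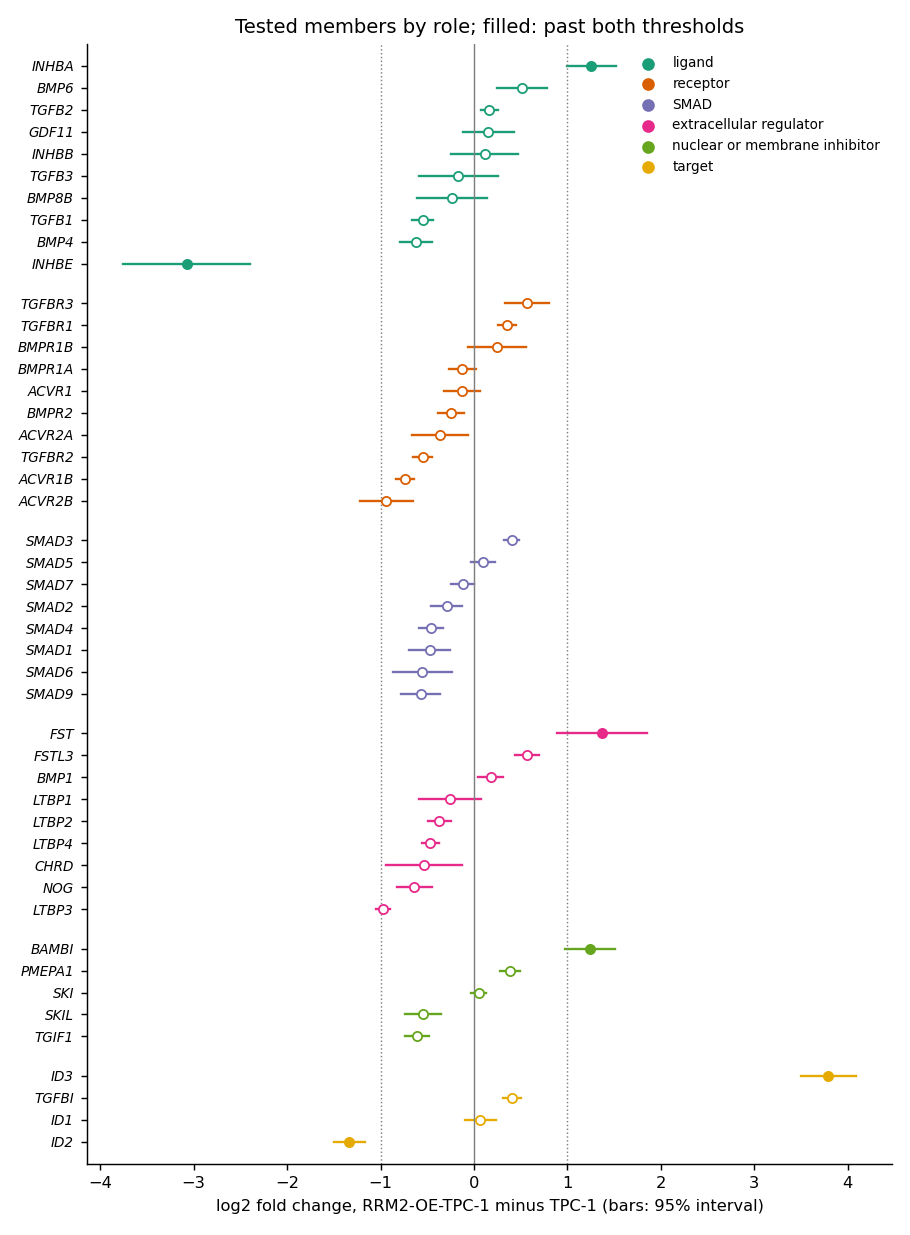
Log2 fold change (RRM2-OE-TPC-1 minus TPC-1, log2(FPKM + 0.1) scale) of the 46 tested pathway genes, grouped by role, with bars for the 95% interval and filled points for genes past both thresholds. *ID3* at 3.79 and *INHBE* at -3.08 lie at the far ends, and most receptors and SMADs lie between -1 and 0.

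The ID genes divided most clearly. *ID3* was close to absent from TPC-1, *ID2* was lower in RRM2-OE-TPC-1 by a factor of 2.53, *ID1* overlapped between the groups and *ID4* was not detected. The upstream sequence available for them is given first, since ID promoters are studied as SMAD-responsive elements. RefSeq windows of 250 bases before the annotated start (GRCh38.p14) were found for 44 of the 50 genes, as 85 windows, and were searched for CAGAC (or GTCTG on the other strand), the SMAD-binding letters, and for the palindrome GGCGCC, a GC-rich BMP-SMAD element. The *ID1* window (chr20:31605039-31605288, plus strand) held neither, and its 244 bases outside annotated exons (chr20:31605039-31605282) are shown because this gene had the highest level of the family. The *ID2* window (chr2:8681806-8682055, plus strand) also held neither. Of its 250 bases 229 lie in annotated exons, and the listed *ID2* gene starts upstream of it at 8678845, so its sequence is not shown. Bases farther upstream were not searched, so elements outside these windows are not covered. The *ID3* window (chr1:23559502-23559751, minus strand) held one CAGAC, which starts 147 bases before the RefSeq start. In GENCODE 29 this *ID3* window lies wholly within an exon of a longer transcript, so only 25 bases of it are shown (chr1:23559634-23559658), with CAGAC in capitals and 10 bases on each side. No motif is in capitals in the first sequence because none was found.
ID1: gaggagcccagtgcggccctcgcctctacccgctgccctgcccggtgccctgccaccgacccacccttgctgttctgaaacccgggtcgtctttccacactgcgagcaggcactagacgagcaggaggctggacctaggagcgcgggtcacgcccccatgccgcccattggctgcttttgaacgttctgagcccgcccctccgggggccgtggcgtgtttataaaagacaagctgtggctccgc
ID3: tcttcggcgtCAGACcagccggagg

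CAGAC was present in 33 of the 85 windows (38.8%) and in 38.0% of all 35116 promoter windows, so its share among pathway genes was near that of promoters in general. GGCGCC was present in 21 of the 85 windows (24.7%) and in 16.4% of all windows. This motif holds only G and C. The median share of G and C over all windows was 58%, and the motif shares were not adjusted for it. Some windows of the same gene overlap, and a match describes letters in the window and not a bound site.

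*ID3* (ENSG00000117318, chr1:23557918-23559794, minus strand) was at 0.23, 0.20 and 0.17 FPKM in the 3 TPC-1 libraries, from 7, 6 and 5 reads. In RRM2-OE-TPC-1 it was at 4.31, 4.00 and 3.91 FPKM, from 112, 123 and 112 reads. Every overexpressing library was thus far above every wild-strain library, and means of 0.202 ± 0.0296 and 4.07 ± 0.211 FPKM (SD, n = 3 each) gave a log2 fold change of 3.79 (SE 0.128, 95% interval 3.50 to 4.09, adjusted p = 1.85e-07). *ID3* entered the test only through RRM2-OE-TPC-1, the group in which it was high. The FPKM ratio was 20.1. Because the lower group rests on few reads, the log2 value moved from 2.08 with a pseudocount of 1 to 4.27 with 0.01. The gene stayed called in both.

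*ID2* (ENSG00000115738, chr2:8678845-8684453, plus strand) went the other way. Its level was 38.3, 33.6 and 36.1 FPKM in TPC-1 and 12.9, 14.4 and 15.3 FPKM in RRM2-OE-TPC-1, with no overlap between the groups. Means of 36.0 ± 2.39 and 14.2 ± 1.22 FPKM gave a log2 fold change of -1.34 (95% interval -1.50 to -1.17, adjusted p = 1.62e-06). The antisense gene *ID2-AS1* shares 38 exon bases with *ID2* but was at a mean of 0.402 FPKM.

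*ID1* (ENSG00000125968, chr20:31605283-31606515, plus strand), the most abundant of the family, was at 39.5, 37.2 and 35.8 FPKM in TPC-1 and at 43.5, 35.9 and 38.8 FPKM in RRM2-OE-TPC-1. These ranges overlap, and the difference of 0.07 on the log2 scale had a 95% interval of -0.09 to 0.23 (adjusted p = 0.410), so a change of the size seen in *ID2* or *ID3* lies outside it. Without RRM2-OE-TPC-1 replicate 1, the highest library, the difference was -0.0048. *ID4* had 0 reads in all 6 libraries, where 3 reads would correspond to 0.0747 to 0.0885 FPKM.

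Together the ID genes summed to 73.7 ± 3.80 FPKM in TPC-1 and 57.7 ± 3.21 FPKM in RRM2-OE-TPC-1. *ID2* supplied 48.8 ± 1.43% of this sum in TPC-1 but 24.7 ± 2.99% in RRM2-OE-TPC-1, and *ID3* 0.274 ± 0.0288% and 7.06 ± 0.309%. *ID1* accordingly made up 50.9% and 68.2%. The family thus went from nearly equal *ID1* and *ID2* to a pool led by *ID1*, with *ID3* still the smallest detected share.

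**Figure D2:**
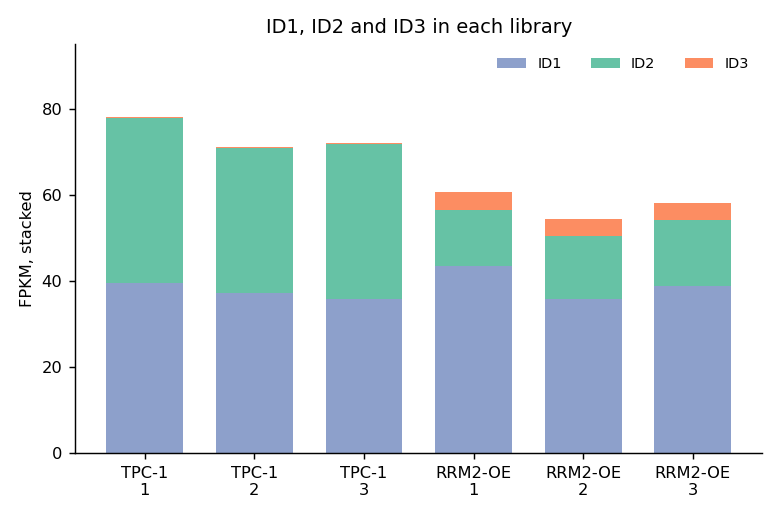
Stacked FPKM of *ID1*, *ID2* and *ID3* in each of the 6 libraries. The *ID2* segment falls from 33.6 to 38.3 FPKM in TPC-1 to 12.9 to 15.3 FPKM in RRM2-OE-TPC-1, while a visible *ID3* segment of 3.91 to 4.31 FPKM appears only in the RRM2-OE-TPC-1 bars.

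The fifth target, *TGFBI*, encodes an extracellular matrix protein induced by TGF-beta. It was at 20.8, 19.8 and 19.0 FPKM in TPC-1 and at 26.3, 25.8 and 26.5 FPKM in RRM2-OE-TPC-1. It rose by a log2 fold change of 0.40 (SE 0.0417, adjusted p = 5.82e-05), with separate groups but short of the fold threshold.

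Among the ligands, the activin and inhibin subunits held both called genes. *INHBA* encodes the beta A subunit, which pairs with itself to form activin A, and *INHBE* encodes the beta E subunit. *INHBA* (ENSG00000122641, chr7:41667168-41705834, minus strand) stood at 0.66, 0.68 and 0.70 FPKM in TPC-1 and at 1.85, 1.81 and 1.63 FPKM in RRM2-OE-TPC-1, from 91 to 95 and from 216 to 257 reads. The 3 overexpressing libraries were all above the others, and means of 0.680 ± 0.0231 and 1.76 ± 0.115 FPKM gave a log2 fold change of 1.25 (SE 0.114, 95% interval 0.99 to 1.52, adjusted p = 2.66e-05). With a pseudocount of 1 the value was 0.72, short of the fold threshold.

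*INHBE* (ENSG00000139269, chr12:57452323-57459280, plus strand) was at 1.15, 0.73 and 1.27 FPKM in TPC-1, from 58, 37 and 61 reads. In RRM2-OE-TPC-1 it was at 0.05, 0.00 and 0.06 FPKM, from 2, 0 and 3 reads. The gene was thus measurable in the wild strain and at or under 3 reads in each overexpressing library, where 3 reads correspond to 0.0581 FPKM in replicate 2. The gene entered the test only through TPC-1, the group in which it was high. The fitted log2 fold change was -3.08 (SE 0.294, adjusted p = 3.59e-05), and its size depends on the pseudocount, from -0.98 with 1 to -4.91 with 0.01. *INHBB*, which encodes the beta B subunit, was at 1.05 ± 0.0525 and 1.16 ± 0.216 FPKM with overlapping groups (adjusted p = 0.536).

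Of the TGF-beta isoforms, *TGFB1* fell, *TGFB2* rose slightly and *TGFB3* did not pass. *TGFB1* was the most abundant ligand, at 36.2, 33.0 and 34.6 FPKM in TPC-1 and 22.8, 24.9 and 23.2 FPKM in RRM2-OE-TPC-1. It fell by 0.55 on the log2 scale (SE 0.0485, adjusted p = 2.32e-05), with no overlap between the groups. The neighbouring gene *HNRNPUL1*, at a mean of 46.1 FPKM, shares 215 exon bases on the opposite strand, and whether strand was used in counting is not given in the sources used here.

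*TGFB2* was at 17.9, 17.5 and 16.7 FPKM in TPC-1 and at 19.1, 19.3 and 20.0 FPKM in RRM2-OE-TPC-1, and rose by 0.16 on the log2 scale (adjusted p = 0.00737). *TGFB3* was below 1 FPKM in every library and its groups overlapped (adjusted p = 0.433). The sum of the isoforms was 52.7 ± 1.80 FPKM in TPC-1 and 43.7 ± 1.19 FPKM in RRM2-OE-TPC-1. *TGFB1* made up 65.7 ± 1.15% of it in TPC-1 but 54.0 ± 1.17% in RRM2-OE-TPC-1, and *TGFB2* 33.0 ± 1.03% and 44.5 ± 1.38%, so the isoform mix shifted towards *TGFB2*.

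Of the BMP ligand genes, *BMP4* was the only one above 3 FPKM. Its values were 13.4, 13.4 and 12.0 FPKM in TPC-1 and 7.88, 7.99 and 9.20 FPKM in RRM2-OE-TPC-1, a fall by 0.62 on the log2 scale (SE 0.0735, adjusted p = 1.22e-04) with separate groups. *BMP6* rose from 1.50 ± 0.213 to 2.17 ± 0.0826 FPKM (log2 fold change 0.52, adjusted p = 0.00441). Neither *BMP8B* (1.21 and 1.00 FPKM, adjusted p = 0.231) nor the ligand gene *GDF11*, which is not a BMP gene by name (2.16 and 2.41 FPKM, adjusted p = 0.283), passed. *BMP8B* reads are uncertain because of its near-identical paralog *BMP8A* and of 80 exon bases shared with *PPIE*.

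*BMP2* and *BMP7* were under the expression minimum in every library and were not tested. *BMP2* lay between 0.03 and 0.27 FPKM, and *BMP7* had reads in RRM2-OE-TPC-1 replicate 2 alone, where it had 3. All 12 ligand genes summed to 73.5 ± 2.17 FPKM in TPC-1 and 60.8 ± 1.40 FPKM in RRM2-OE-TPC-1, of which the TGF-beta isoforms were the larger share.

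**Figure D3:**
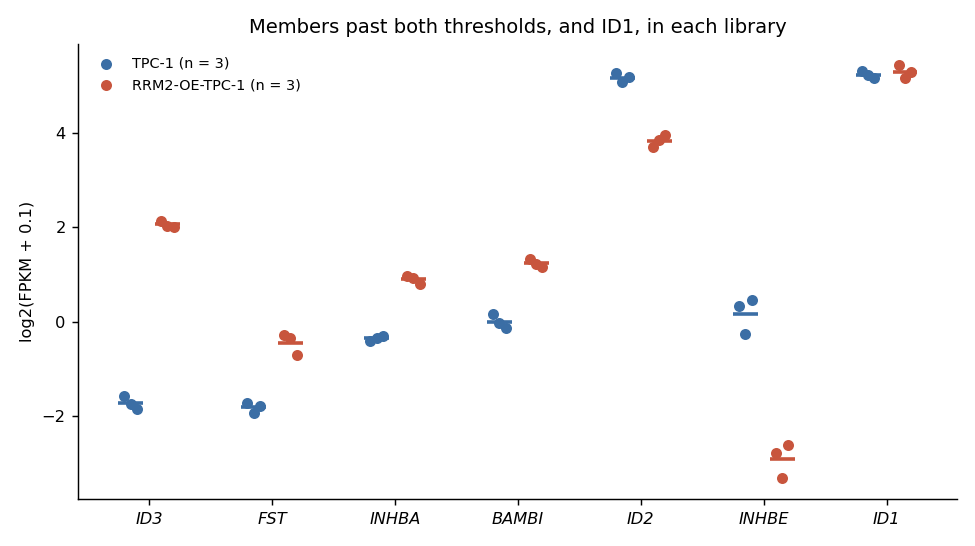
Log2(FPKM + 0.1) in each library for the 6 called pathway genes and *ID1*, with TPC-1 and RRM2-OE-TPC-1 side by side and lines for the group means. The 2 groups are separate for *ID3*, *FST*, *INHBA*, *BAMBI*, *ID2* and *INHBE*, and overlap for *ID1*.

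No receptor was called in limma, and 7 of 10 passed the adjusted p, 5 lower and 2 higher, a share near the 67.6% of all genes. As many passed at an unadjusted p under 0.05, with a median log2 fold change of -0.19. *TGFBR2*, the type II receptor that binds TGF-beta, was the most abundant receptor at 65.8, 70.1 and 63.8 FPKM in TPC-1 and 44.3, 44.9 and 46.9 FPKM in RRM2-OE-TPC-1. It fell by 0.55 on the log2 scale (SE 0.0432, adjusted p = 1.21e-05). *TGFBR1*, the type I receptor it pairs with, rose from 10.5 ± 0.171 to 13.5 ± 0.442 FPKM (log2 fold change 0.36, adjusted p = 1.19e-04).

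The TGF-beta receptor pair therefore drew closer in RNA level: the FPKM of *TGFBR2* was 6.36, 6.62 and 5.98 times that of *TGFBR1* in the TPC-1 libraries and 3.23, 3.45 and 3.39 times in the RRM2-OE-TPC-1 libraries. The co-receptor *TGFBR3*, or betaglycan, which presents TGF-beta2 and inhibin, rose from 1.12 ± 0.0557 to 1.71 ± 0.0939 FPKM (log2 fold change 0.57, adjusted p = 0.00143).

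The activin receptors fell. *ACVR1B*, the main activin type I receptor, was at 14.2, 14.8 and 13.9 FPKM in TPC-1 and 8.60, 8.39 and 8.55 FPKM in RRM2-OE-TPC-1, a log2 fold change of -0.74 (SE 0.0416, adjusted p = 2.05e-06). *ACVR2B*, a type II receptor, went from 1.33 ± 0.0899 to 0.647 ± 0.0342 FPKM (log2 fold change -0.94, 95% interval -1.22 to -0.65, adjusted p = 2.40e-04), just short of the fold threshold, and crossed it with a pseudocount of 0.01 (-1.03) and in limma voom on recovered reads (-1.04). *ACVR2A*, the other activin type II receptor, was at 1.83 ± 0.267 and 1.39 ± 0.112 FPKM (log2 fold change -0.37, adjusted p = 0.0347), an adjusted p that rose above 0.05 without some single libraries and with no filter on low values, and it shares 430 exon bases with *ORC4*. *INHBA* and these receptors thus moved in opposite directions, while *INHBE* fell as the receptors did, and the FPKM of *ACVR1B* was 21.0 ± 1.05 times that of *INHBA* in TPC-1 and 4.84 ± 0.340 times in RRM2-OE-TPC-1.

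The BMP receptors moved little. *BMPR2*, the BMP type II receptor, fell from 10.5 ± 0.819 to 8.86 ± 0.164 FPKM (log2 fold change -0.24, adjusted p = 0.00706). The type I receptors *ACVR1* (6.02 and 5.50 FPKM, adjusted p = 0.199), *BMPR1A* (4.84 and 4.43 FPKM, adjusted p = 0.112) and *BMPR1B* (0.870 and 1.04 FPKM, adjusted p = 0.145) did not pass. Their 95% intervals, -0.33 to 0.06, -0.27 to 0.02 and -0.07 to 0.55, leave out a change of 1 in either direction. All receptors summed to 118 ± 4.48 FPKM in TPC-1 and 91.0 ± 1.88 FPKM in RRM2-OE-TPC-1.

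Of the 8 SMADs none was called in limma or limma voom and 6 passed the adjusted p, as many as at an unadjusted p under 0.05. They were 5 lower and 1 higher, beside 67.6% of all genes past the adjusted p, 32.7% lower and 34.9% higher, with a median log2 fold change of -0.38. The one that rose was *SMAD3*, the most abundant and a transducer for TGF-beta and activin. It was at 35.1, 34.2 and 34.4 FPKM in TPC-1 and 44.4, 45.8 and 46.8 FPKM in RRM2-OE-TPC-1 (log2 fold change 0.40, SE 0.0332, adjusted p = 1.60e-05). *SMAD2*, which carries the same signals, fell from 2.99 ± 0.116 to 2.42 ± 0.0347 FPKM (log2 fold change -0.29, adjusted p = 0.00734).

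*SMAD4*, the partner shared by both branches, fell from 6.66 ± 0.125 to 4.81 ± 0.189 FPKM (log2 fold change -0.46, adjusted p = 1.19e-04). The FPKM of *SMAD3* was 5.36, 5.03 and 5.17 times that of *SMAD4* in the TPC-1 libraries and 9.41, 9.75 and 9.30 times in the RRM2-OE-TPC-1 libraries, with no overlap. The FPKM of *SMAD2* was divided over a listed gene length of 36366 bases and that of *SMAD3* over 9113 bases.

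For the BMP branch, *SMAD1* fell from 2.56 ± 0.0968 to 1.81 ± 0.168 FPKM (log2 fold change -0.48, adjusted p = 0.00246) and *SMAD9* from 3.08 ± 0.290 to 2.03 ± 0.00551 FPKM (log2 fold change -0.57, adjusted p = 6.50e-04). *SMAD5*, the most abundant of the branch, was at 11.9 ± 0.688 and 12.7 ± 0.597 FPKM and did not pass (adjusted p = 0.173). As *SMAD5* made up most of it, the sum of these SMADs was 17.6 ± 0.395 FPKM in TPC-1 and 16.6 ± 0.550 FPKM in RRM2-OE-TPC-1. The inhibitory *SMAD6*, which acts mainly on the BMP branch, fell from 1.28 ± 0.140 to 0.838 ± 0.0864 FPKM (log2 fold change -0.55, adjusted p = 0.00700), and the inhibitory *SMAD7*, at 7.34 ± 0.331 and 6.73 ± 0.204 FPKM, did not pass (adjusted p = 0.0740).

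**Figure D4:**
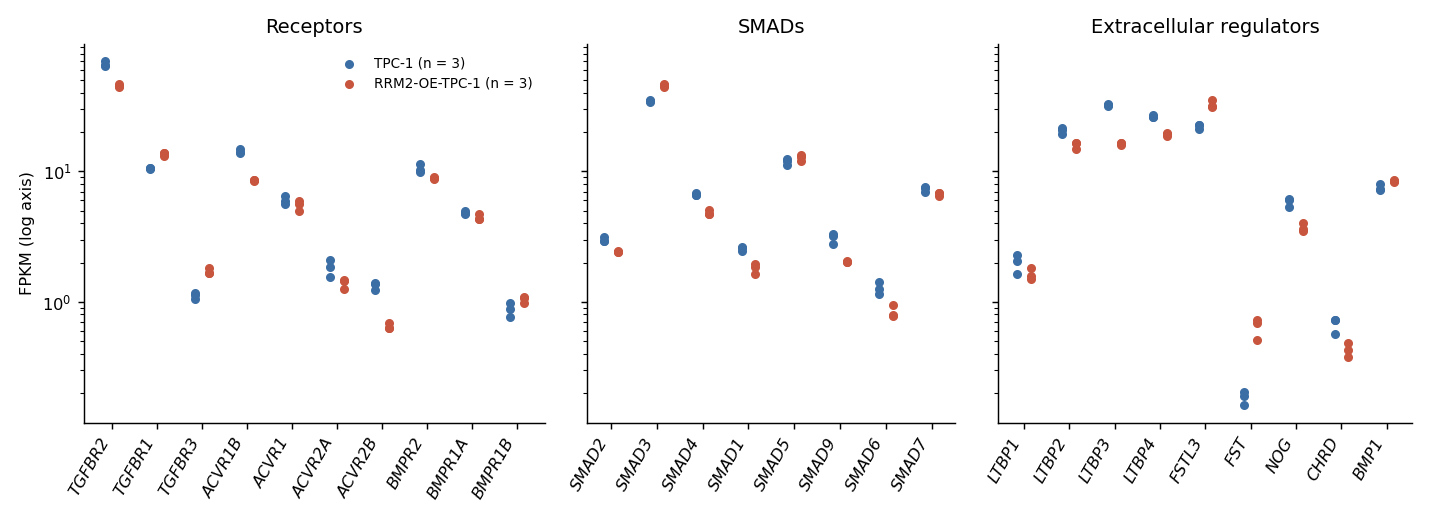
FPKM (log axis) in each library for the receptors, the SMADs and the extracellular regulators, with the 2 groups in separate colors. *TGFBR2* stands above the other receptors at 44.3 to 70.1 FPKM and *SMAD3* above the other SMADs at 34.2 to 46.8 FPKM. The 2 groups are separate in 8 of 10 receptors and 7 of 8 SMADs, beside 72.2% of all genes.

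Of the 10 extracellular regulators, 9 were tested, 1 was called higher and 8 passed the adjusted p, 3 higher and 5 lower, beside 11.5% of all genes called and 67.6% past the adjusted p. Both follistatin-type activin antagonists rose. *FST*, which encodes follistatin (ENSG00000134363, chr5:53480409-53487134, plus strand), was at 0.20, 0.16 and 0.19 FPKM in TPC-1 and 0.72, 0.69 and 0.51 FPKM in RRM2-OE-TPC-1, from 8 to 10 and 24 to 35 reads. It was low in every library yet separate between the groups, and entered the test only through RRM2-OE-TPC-1, where it was higher. The log2 fold change was 1.37 (SE 0.209, 95% interval 0.89 to 1.85, adjusted p = 5.35e-04), and 0.47 with a pseudocount of 1, which is short of the fold threshold.

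*FSTL3*, a secreted follistatin-like antagonist, was far more abundant, at 22.6, 21.1 and 22.5 FPKM in TPC-1 and 35.5, 31.2 and 31.7 FPKM in RRM2-OE-TPC-1. It rose by a log2 fold change of 0.57 (SE 0.0563, adjusted p = 4.46e-05) with no overlap. With *INHBA* also higher, the FPKM of *INHBA* was 3.25, 4.25 and 3.70 times that of *FST* in the TPC-1 libraries. It was 2.56, 2.63 and 3.22 times that of *FST* in the RRM2-OE-TPC-1 libraries. As *FST* had only 8 to 10 reads in each TPC-1 library, no group difference is read from these ratios.

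Of the 4 latent TGF-beta binding proteins (LTBPs), matrix proteins some of which tether latent TGF-beta, *LTBP2*, *LTBP3* and *LTBP4* fell. *LTBP3* was at 32.7, 32.6 and 32.0 FPKM in TPC-1 and 16.1, 16.6 and 16.7 FPKM in RRM2-OE-TPC-1. Its log2 fold change of -0.98 (SE 0.0333, 95% interval -1.05 to -0.90, adjusted p = 1.95e-07) was short of the fold threshold, and with library totals as the scale it was -1.04 and past it.

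*LTBP4* fell from 26.5 ± 0.741 to 19.1 ± 0.545 FPKM (log2 fold change -0.47, adjusted p = 1.59e-05) and *LTBP2* from 20.6 ± 0.993 to 15.9 ± 0.897 FPKM (log2 fold change -0.37, adjusted p = 4.44e-04). *LTBP1*, at 1.99 ± 0.339 and 1.64 ± 0.170 FPKM, did not pass (adjusted p = 0.141). The 4 LTBPs summed to 83.3, 79.8 and 81.4 FPKM in TPC-1 and 52.4, 53.0 and 53.8 FPKM in RRM2-OE-TPC-1, and *LTBP3* made up 39.8 ± 0.854% and 30.9 ± 0.293% of the sum, so it fell more than the rest of its family.

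Among BMP antagonists, *NOG* (noggin) was at 6.14, 5.37 and 6.07 FPKM in TPC-1 and 3.62, 4.04 and 3.52 FPKM in RRM2-OE-TPC-1, a fall by 0.64 on the log2 scale (SE 0.0799, adjusted p = 1.72e-04). Its change was close in size to that of its ligand *BMP4*, and the FPKM of *BMP4* was 2.21 ± 0.259 times that of *NOG* in TPC-1 and 2.26 ± 0.328 times in RRM2-OE-TPC-1. *CHRD* (chordin) was at 0.667 ± 0.0914 and 0.428 ± 0.0538 FPKM (log2 fold change -0.54, adjusted p = 0.0265), and *BMP1*, the protease that cleaves chordin, at 7.49 ± 0.482 and 8.46 ± 0.133 FPKM (log2 fold change 0.18, adjusted p = 0.0233). Both of these rose above an adjusted p of 0.05 without some single libraries, as did *CHRD* with no filter or the FPKM minimum alone and *BMP1* with library totals as the scale. *CHRD* also entered the test only through TPC-1, where it was higher. *GREM1*, which encodes gremlin, had 0 reads in TPC-1 and 1 to 3 reads in each RRM2-OE-TPC-1 library, and was not tested.

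The nuclear and membrane inhibitors did not move together. *BAMBI* encodes a pseudoreceptor that lacks the kinase domain (ENSG00000095739, chr10:28677342-28682939, plus strand). It was at 1.01, 0.87 and 0.81 FPKM in TPC-1 and 2.39, 2.25 and 2.14 FPKM in RRM2-OE-TPC-1, from 30 to 39 and 79 to 89 reads. The groups were separate, with a log2 fold change of 1.24 (SE 0.115, 95% interval 0.98 to 1.51, adjusted p = 2.95e-05), and of 0.78 with a pseudocount of 1, short of the fold threshold.

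*PMEPA1*, a membrane protein that sequesters receptor-regulated SMADs, rose from 10.1 ± 0.428 to 13.3 ± 0.364 FPKM (log2 fold change 0.39, adjusted p = 1.39e-04). Among the nuclear corepressors, *SKIL* fell from 6.33 ± 0.459 to 4.31 ± 0.387 FPKM (log2 fold change -0.55, adjusted p = 5.73e-04) and *TGIF1* from 8.81 ± 0.456 to 5.72 ± 0.117 FPKM (log2 fold change -0.61, adjusted p = 2.38e-05). *SKI*, the most abundant of these, was at 24.0, 22.7 and 23.1 FPKM in TPC-1 and 23.8, 23.9 and 24.5 FPKM in RRM2-OE-TPC-1, with overlapping groups and a difference of 0.05 (95% interval -0.03 to 0.13, adjusted p = 0.260) that was -0.0088 with library totals as the scale. The 2 membrane proteins were thus higher, 2 of 3 corepressors lower, and the summed level of the 5 inhibitors was 49.4 ± 0.439 FPKM in TPC-1 and 49.6 ± 0.339 FPKM in RRM2-OE-TPC-1.

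Beside the 50 genes, 113 other genes of the pathway were taken from lists drawn up by function. Earlier results of these data were known when the lists were made, so the counts below are descriptive. Of the 113 genes 64 were tested and 15 were called, 9 higher and 6 lower, again beside 11.5% of all genes. Past the adjusted p were 49, 27 higher and 22 lower, beside 67.6% of all genes. The median log2 fold change of the 64 was 0.12.

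Among 21 known TGF-beta target genes 18 were tested, with 5 called higher and 1 lower, 10 and 5 past the adjusted p, and a median log2 fold change of 0.66, beside 4.48% and 6.97% of all genes called higher and lower. *TAGLN*, which encodes the actin-binding protein transgelin, was at 0.948, 0.698 and 0.817 FPKM in TPC-1 and 7.98, 8.30 and 7.47 FPKM in RRM2-OE-TPC-1 (log2 fold change 3.13, adjusted p = 2.30e-07). *CDH2* (N-cadherin), the metalloprotease *ADAM19* and the secreted *ANGPTL4* were called higher with log2 fold changes of 1.07, 1.08 and 1.09.

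The target called lower was *TSC22D1*, a TGF-beta-stimulated leucine zipper gene, which fell from 33.4 to 10.7 FPKM (log2 fold change -1.64, adjusted p = 4.29e-08). Of the other targets past the adjusted p, 5 rose and 4 fell, all short of the fold threshold. Those that fell were *CDKN2B*, *COL1A1*, *KLF10* and *SNAI1*, with log2 fold changes of -0.67, -0.61, -0.35 and -0.32. Of 9 other BMP target genes 4 were tested, with a median log2 fold change of -0.30. The Notch and BMP target *HEY1* was called lower, from 3.26 to 1.53 FPKM (log2 fold change -1.04).

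Among 29 other extracellular regulators 14 were tested, with 2 called higher and 3 lower, beside 4.48% and 6.97% of all genes. *THBS1* encodes thrombospondin 1, an activator of latent TGF-beta, and rose from 168 ± 4.56 to 389 ± 2.76 FPKM (log2 fold change 1.21, adjusted p = 9.25e-08). The BMP antagonist *CHRDL1* rose from 14.3 to 32.7 FPKM (log2 fold change 1.19, adjusted p = 2.74e-07). The lower ones were the proteoglycan *BGN* (-1.37), the TGF-beta-binding membrane protein *VASN* (-1.30) and the latent TGF-beta-activating integrin subunit *ITGB8* (-1.10).

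Of 24 intracellular regulators 22 were tested and 2 were called, both higher, a share near the 11.5% of all genes. *SMURF2* and *NEDD4L* encode ubiquitin ligases that act on SMADs and their receptors. *SMURF2* rose from 6.16 to 13.1 FPKM (log2 fold change 1.07) and *NEDD4L* from 9.54 to 20.9 FPKM (log2 fold change 1.12). Of 21 other ligands only 3 could be tested, and *INHA*, which encodes the inhibin alpha subunit, was called lower from 1.59 ± 0.192 to 0.369 ± 0.0813 FPKM (log2 fold change -1.86, adjusted p = 3.63e-05), having passed the expression minimum only through TPC-1. Of 9 other receptors and co-receptors 3 were tested. *ENG* (endoglin) rose from 42.0 to 67.7 FPKM and *NEO1* (neogenin) fell from 5.96 to 3.96 FPKM, both past the adjusted p (log2 fold changes 0.69 and -0.58).

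**Figure D5:**
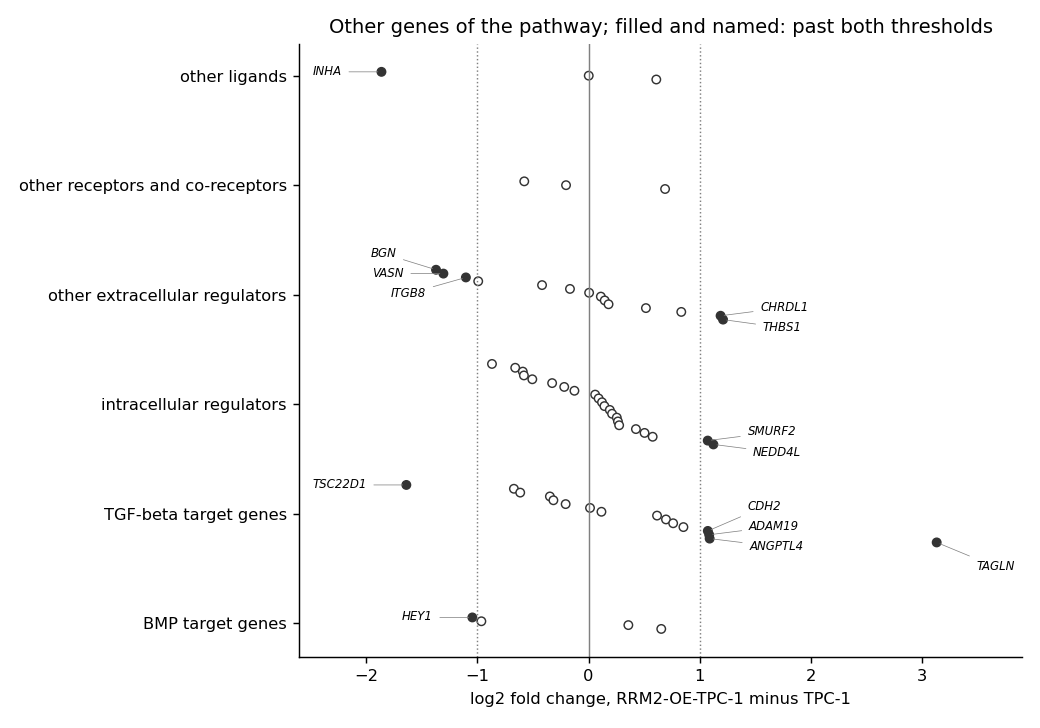
Log2 fold change (RRM2-OE-TPC-1 minus TPC-1, log2(FPKM + 0.1) scale) of tested pathway genes outside the 50 members that were above the expression minimum in at least 1 TPC-1 library, by list, with filled and named points for those past both thresholds. *TAGLN* at 3.13 is the highest and *INHA* at -1.86 the lowest of those drawn.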

How the data were processed

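The authors sequenced paired-end libraries (rRNA removal and RNase R digestion per the labels, poly(A) selection per the methods), aligned reads with HISAT2 2.0.5, counted them with featureCounts 1.5.0, compared groups with DESeq2 1.20.0 and deposited FPKM per gene (GRCh38.p14 per the processing notes). Gene positions matched GENCODE 29. No count table was used. Dividing the deposited FPKM by the value of 1 read gave whole reads for 100% of values within 0.01, which provided the depths of 14317091 to 17084067 reads per library.

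Genes with FPKM of at least 0.5 and at least 10 reads in at least 3 libraries were tested on log2(FPKM + 0.1). The test was limma 3.58.1 in R 4.3.3 (moderated, with intensity trend), adjusted by Benjamini-Hochberg over 13621 genes. It was checked on simulated data in which far fewer genes changed than here, all by the same large fold. That check does not cover small or widespread changes. A single-value exact permutation test of 3 against 3 libraries cannot go below p = 0.1 and was not used. Promoter windows were read from RefSeq (GRCh38.p14). The members and lists were chosen with earlier results of these data known, and every member is named. Of the other pathway genes, those past both thresholds are named, apart from some genes not reported here, and *ENG*, *NEO1*, *CDKN2B*, *COL1A1*, *KLF10* and *SNAI1* were added after their values were seen. Replicates correlated at 0.990 to 0.992 within groups, and no pair agreed within sampling noise. Reads of overlapping or near-identical genes may be split or shared by the counting.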

Additional observations from a re-analysis of the deposited data

How the results depend on the processing

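The 6 called members and their directions were the same without a filter on low values, with the FPKM minimum alone, with median-of-ratios or TMM scaling and without each single library. The deposited FPKM was scaled to 1.03 to 1.05 times the reads on genes in TPC-1 and to 0.997 to 1.01 times in RRM2-OE-TPC-1. Median-of-ratios scaling nearly repeated the main values (*TGFB1* -0.5483 and -0.5485, *ID2* -1.335 in both), so it is hardly a separate check. With a pseudocount of 1, 2 members were called (*ID3* higher and *ID2* lower, 1 each), 8 other pathway genes were called, the median of the members was -0.13, and 716 genes in all were called in place of 1560; the larger pseudocount shrinks the change of low genes. Testing for a change above 1 on the log2 scale (limma treat) left 3 members (1 higher, *ID3*, and *ID2* and *INHBE* lower), 3 members past the adjusted p in place of 34, 8 other pathway genes and 618 genes in all, and no filter gave 2281 genes in all. A pseudocount of 0.01 and limma voom on the recovered reads, the latter chosen after seeing the data, each called 7 members with *ACVR2B* as the added one, and library totals called 7 with *LTBP3*. Voom called 1740 genes in all.

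Without each library in turn, 31 to 34 members passed the adjusted p, 6 were called each time (4 higher and 2 lower), 15 to 18 other pathway genes were called, and the median was -0.23 to -0.15. The adjusted p was lost in at least one of these for *ACVR2A*, *CHRD* and *BMP1* and gained for *BMP8B*, *SMAD7* and *LTBP1*. The direction reversed for *SKI* (-0.0088 with library totals) and *ID1* (-0.0048 without RRM2-OE-TPC-1 replicate 1, in a range of -0.0048 to 0.13 without each library), neither of them past the threshold. Library totals moved the median of all genes to -0.05.

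Replicate numbers are shared between the groups, but same-numbered libraries deviated together at r = -0.01, -0.01 and -0.06, so the numbers do not pair them. With the replicate block 6 members were called and 34 passed the adjusted p, and 1566 genes in all were called. The planned edgeR and DESeq2 alternatives were not run on the recovered reads, and limma voom was run on those reads instead. The lower group of *ID3*, *FST* and *INHBE* rests on 10 reads or fewer a library, which limits the precision of these 3 changes.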
